A study of Mus musculus with 25 samples.

Results

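Which genes still move once CHIR99021 is raised above 5 µM, and which have stopped, was asked of 6 of the 25 RNA libraries of the series. These were the 2 libraries at 7.5 µM and the 2 at 10 µM, pooled as a group of 4, and the 2 at 5 µM, taken by their labelled doses. All came from unedited wild-type E14 cells, a mouse embryonic stem (ES) cell line cultured without feeders in medium with serum and leukemia inhibitory factor, after 48 h with the compound. The 4 libraries at 0 and 2.5 µM from the same dose series served as context and contributed to the estimate of the spread, and the other 15 libraries, from *Ctnnb1*-mutant clones, did not enter.

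CHIR99021 inhibits GSK3, the kinase that marks β-catenin for degradation. When GSK3 is blocked, β-catenin accumulates, enters the nucleus and activates genes together with TCF/LEF transcription factors, some of which encode inhibitors that feed back on the pathway. In mouse ES cells the same signal relieves repression by TCF7L1 and sustains self-renewal, and stronger or longer signaling is known to induce genes of the primitive streak.

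The data are unique molecular identifier (UMI) counts of transcript 3′ ends per gene. The 6 libraries held between 306157 (10 µM, replicate 1) and 2083398 (5 µM, replicate 2) counts, with 12399 to 16853 detected genes. Levels are given as CPM, counts scaled to a common library total, and a count of 0 allows up to 3 counts, or 1.44 to 9.80 CPM across these libraries, by counting error alone. Replicates of a dose differed by more than sampling noise, with a χ2 per degree of freedom of 1.36 at 7.5 µM, 1.77 at 5 µM and 1.96 at 10 µM. The share of mitochondrial counts split the libraries into 2 sets that cut across doses: 0.485% in replicate 1 at 5 µM and 0.486% in replicate 1 at 10 µM, against 0.986% to 1.46% in the other 4. Over the dose series the sets also differed in depth without overlap. The set of lower share held 306157 to 940544 counts per library and the other 1311779 to 2083398, so share and depth cannot be told apart. Nothing in the labels says that replicates came from separate cultures, so p-values measure the spread between these libraries. In bulk RNA, fewer cells expressing a gene and less RNA per cell cannot be told apart.

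ES cell markers were detected in all 6 libraries. *Sox2* lay between 421 and 520 CPM, *Klf4* between 467 and 520 CPM, *Esrrb* between 286 and 343 CPM, *Nanog* between 169 and 238 CPM, *Utf1* between 168 and 235 CPM, *Dppa4* between 141 and 209 CPM and *Zfp42* between 149 and 175 CPM. *Pou5f1* was counted at only 11.3 to 21.4 CPM.

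Few genes passed the test once the dose was above 5 µM. Of 10674 genes fitted, 2 passed an adjusted p of 0.05 between the pooled top doses and 5 µM (edgeR quasi-likelihood test, Benjamini-Hochberg adjustment), which is 0.0187%. Both were higher, *Fgfbp3* and *Abhd2*. For lower genes the count was 0, with 266 genes lower at an unadjusted p under 0.05 (2.49%) and 247 higher (2.31%). DESeq2 called 1 gene, *Fgfbp3*, and put 125 at an unadjusted p under 0.05. By the same edgeR fit 262 genes (2.45%) had changed at 2.5 µM against 0 µM, 915 (8.57%) at 5 µM against 0 µM and 1741 (16.3%) at the top doses against 0 µM. These counts come from groups of 2, 2 and 4 treated libraries and share the 0 µM libraries, so they were not compared with each other.

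Fitted singly, 7.5 µM differed from 5 µM in 2 genes, both higher (0.0187% of genes fitted), and 10 µM differed from 5 µM in 7 genes, 6 higher (0.0562%) and 1 lower (0.00937%), in all 0.0656%. Among the 6 is *Lmo2*, which passed the filter on low counts through the top libraries, so its call is not read. Between 10 and 7.5 µM edgeR called 0 genes and put 501 (4.69%) at an unadjusted p under 0.05, and DESeq2 called 0 and put 82 there. Each dose has 2 libraries, and replicate 1 at 10 µM was the shallowest of the dose series, so a missing call is not a measured standstill.

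*Fgfbp3* encodes a secreted protein that binds fibroblast growth factors. It was listed at 3.80 and 5.32 CPM at 0 µM, 7.19 and 2.29 CPM at 2.5 µM, 18.1 and 13.0 CPM at 5 µM, 45.7 and 36.9 CPM at 7.5 µM, and 68.6 and 68.5 CPM at 10 µM. All 4 top libraries lay above both libraries at 5 µM, and both at 10 µM lay above both at 7.5 µM. Of all genes fitted 6.76% lay wholly above 5 µM in this way and 5.9% wholly below. The rise from 5 µM to the top doses was 3.55-fold (log2 fold change 1.83 ± 0.28 SE, edgeR adjusted p = 0.000885), with a 95% interval of 2.39- to 5.26-fold. It was called at 7.5 µM alone (2.82-fold, edgeR adjusted p = 0.0398) and at 10 µM alone (4.78-fold). The step from 7.5 to 10 µM had an unadjusted p of 0.00199 and did not pass adjustment over all genes. Without replicate 2 at 5 µM the pooled value was 1.45 on the log2 scale and the call was lost (edgeR adjusted p = 0.582).

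*Abhd2* encodes a serine hydrolase that acts on lipids. Its levels were 166 and 135 CPM at 0 µM, 165 and 215 CPM at 2.5 µM, 263 and 232 CPM at 5 µM, 379 and 346 CPM at 7.5 µM, and 343 and 444 CPM at 10 µM. The 4 top libraries again lay above both at 5 µM, while those at 7.5 and 10 µM overlapped. The rise was 1.55-fold (log2 fold change 0.63 ± 0.12 SE, edgeR adjusted p = 0.0461), close to the threshold, and 8 of 19 alternative settings lost the call. Among them were the fits without replicate 1 at 0 µM, without replicate 1 or 2 at 5 µM, without replicate 1 at 7.5 µM and without replicate 2 at 10 µM (log2 fold change 0.49 to 0.71, edgeR adjusted p = 0.0524 to 0.681). The gene (chromosome 7, 79273199 to 79365508 in GRCm38, plus strand) overlaps 2 other annotated genes on its own strand and 1 on the other. The strand setting of the counting is not given in the sources used here.

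The next 3 genes by p missed the threshold for the pooled doses and passed it at 10 µM against 5 µM. *Nkd1*, a Wnt-induced antagonist that binds Dishevelled, was at 19.7 and 24.5 CPM at 5 µM, 45.7 and 42.1 CPM at 7.5 µM, and 49.0 and 77.6 CPM at 10 µM. *Notum*, a secreted enzyme that inactivates Wnt ligands by removing their lipid, was at 34.5 and 23.0 CPM, 47.2 and 49.0 CPM, and 42.5 and 68.5 CPM at the same doses. *Slc38a4*, an amino acid transporter and imprinted gene, was at 194 and 180 CPM, 266 and 258 CPM, and 372 and 294 CPM. For each of the 3 genes no top library fell to the level of a library at 5 µM. The pooled log2 fold changes were 1.19 ± 0.24 for *Nkd1* (edgeR adjusted p = 0.0537), 0.62 ± 0.13 for *Slc38a4* (edgeR adjusted p = 0.0596) and 1.02 ± 0.22 for *Notum* (edgeR adjusted p = 0.0934). At 10 µM against 5 µM they rose 3.02-fold, 1.74-fold and 2.37-fold, with edgeR adjusted p of 0.000937, 0.00740 and 0.0285. The plot of the genes with the smallest p shows the levels by dose.

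**Figure D1:**
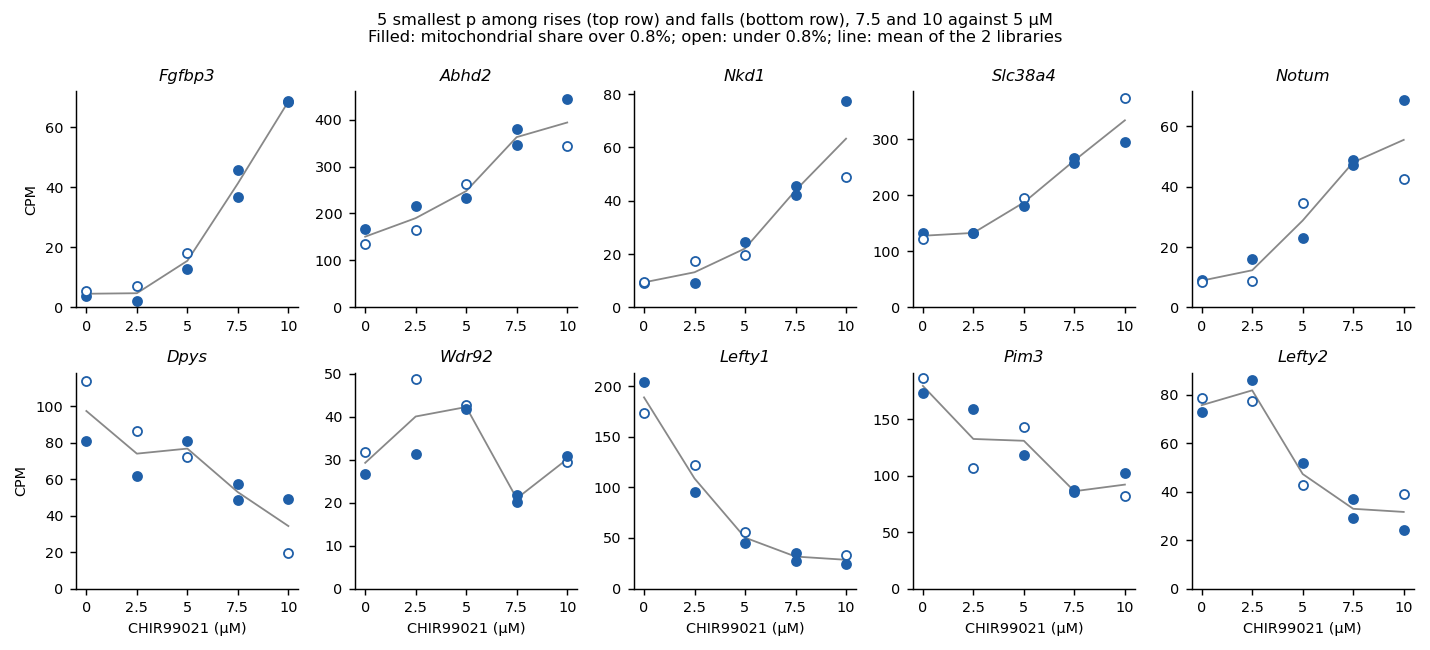
CPM in each of the 10 libraries (y axis, linear from 0) against the dose of CHIR99021 in µM (x axis) for the 5 rises and the 5 falls with the smallest p between 7.5 and 10 µM and 5 µM, among genes averaging 20 CPM or more. Filled points are libraries with a mitochondrial share over 0.8%, open points those under it, and lines join the means of 2 libraries; in the upper panels all 4 points at 7.5 and 10 µM lie above both at 5 µM, and in the lower panels all lie below, but no fall passed the adjusted test.

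*Fgfbp3* and *Abhd2* were the genes called in the pooled comparison, and *Sp5*, described further on, had the largest early change among induced genes in the plateau class defined there. Their 250 bases before the start annotated in RefSeq are shown to let the regulatory DNA of both kinds be read side by side. For *Fgfbp3* and *Abhd2* the window runs past the gene start in GENCODE, at 36919615 and 79273199, so its last bases lie within the gene by that annotation. The sequences are from RefSeq (GRCm38.p6), written 5′ to 3′ on the gene's strand, at chr19:36919600-36919849 (minus) for *Fgfbp3*, chr7:79273016-79273265 (plus) for *Abhd2* and chr2:70474673-70474922 (plus) for *Sp5*. Capitals mark the TCF/LEF core motif CTTTGAT, which was searched on both strands (ATCAAAG on the other).
Fgfbp3: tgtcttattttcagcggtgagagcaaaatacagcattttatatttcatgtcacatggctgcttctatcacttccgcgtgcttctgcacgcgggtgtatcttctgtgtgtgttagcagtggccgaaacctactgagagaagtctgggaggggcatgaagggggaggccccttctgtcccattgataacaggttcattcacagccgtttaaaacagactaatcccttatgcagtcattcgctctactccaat
Abhd2: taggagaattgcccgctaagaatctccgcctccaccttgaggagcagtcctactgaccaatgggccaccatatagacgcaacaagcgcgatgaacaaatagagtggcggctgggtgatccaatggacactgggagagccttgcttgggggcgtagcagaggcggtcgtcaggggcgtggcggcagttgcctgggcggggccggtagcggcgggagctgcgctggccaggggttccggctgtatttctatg
Sp5: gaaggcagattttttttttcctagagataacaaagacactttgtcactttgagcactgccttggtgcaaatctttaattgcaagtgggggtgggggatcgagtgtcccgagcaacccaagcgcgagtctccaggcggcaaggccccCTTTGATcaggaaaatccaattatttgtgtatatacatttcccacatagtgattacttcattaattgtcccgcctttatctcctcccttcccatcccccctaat
The motif occurred 1 time in the *Sp5* window, with its first base at -104 from the start, and 0 times in the other two. Of 32851 RefSeq promoters 3.21% hold it in the same window. Promoters were found for 28 of the 40 genes named by rule, and 2 of these, *Sp5* and *Phc1*, hold it. A match describes these letters and is not a binding site, and distal DNA was not looked at.

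Of the remaining genes called at a single dose, *Lmo2*, an adaptor of blood cell transcription factors, was low. It was at 11.5 and 6.72 CPM at 5 µM, 23.9 and 10.9 CPM at 7.5 µM, and 35.9 and 30.9 CPM at 10 µM, so 1 library at 7.5 µM overlapped with 5 µM. Without the compound it was at 1.63 and 1.06 CPM. It passed the filter on low counts through the top libraries, where it is high, so its levels are a description and its call is not read. *Smc3*, a cohesin subunit, was the single fall, at 540 and 386 CPM at 5 µM, 373 and 434 CPM at 7.5 µM, and 287 and 243 CPM at 10 µM. It fell to 0.568 times the level at 5 µM (edgeR adjusted p = 0.0138), with replicates at 5 µM far apart. *Gm16580*, a processed pseudogene inside *Luc7l*, was called at 7.5 µM against 5 µM (1.54-fold, edgeR adjusted p = 0.0457) and was back at 333 and 315 CPM at 10 µM, against 319 and 315 CPM at 5 µM. Its reads may belong to another copy, and its count is uncertain.

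None of the falls passed the pooled test. The 5 with the smallest p were *Dpys*, an enzyme of pyrimidine breakdown, *Wdr92*, *Lefty1* and *Lefty2*, secreted antagonists of Nodal, and *Pim3*, a serine/threonine kinase. Their log2 fold changes lay between -0.80 and -0.50, with edgeR adjusted p of 0.80 for *Dpys* and 0.868 for the others. *Lefty1* was at 204 and 173 CPM at 0 µM, 122 and 95.3 CPM at 2.5 µM, 55.9 and 44.6 CPM at 5 µM, 35.5 and 27.7 CPM at 7.5 µM, and 32.7 and 24.1 CPM at 10 µM. Its groups did not overlap between any of 0, 2.5, 5 µM and the top doses, but 87.2% of the whole drop had been reached at 5 µM (83.7% to 90.8% with each library left out in turn). *Wdr92* did not follow the dose: it was at 42.8 and 41.8 CPM at 5 µM, 21.8 and 20.2 CPM at 7.5 µM, and 29.4 and 30.9 CPM at 10 µM, and it overlaps *Ppp3r1* and *Pno1*.

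To ask which genes had stopped, the 262 genes changed at 2.5 µM against 0 µM were taken, since none of those 4 libraries supplies a level to the comparison above 5 µM. They do share its estimate of the spread, which sets the width of the intervals. The choice of these genes and their plateau class are therefore not fully independent. A gene was put in the plateau class when the 95% interval of its log2 fold change between the top doses and 5 µM lay within ±0.5, a change of at most 1.41-fold. Of the 262, 121 were on a plateau, 141 were not resolved, 0 had moved on in the same direction and 0 had turned back, both by the adjusted edgeR test. At an unadjusted p under 0.05, 8 of the 262 were higher at the top doses and 14 lower, beside 2.31% and 2.49% of all genes, and DESeq2 called none of them. Of the induced genes 7 were higher (4.9%) and 4 lower (2.8%), and of the repressed genes 1 was higher (0.84%) and 10 were lower (8.4%).

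Genes induced and genes repressed at 2.5 µM were counted separately. Of the 143 induced genes (1.34% of genes fitted), 87 (60.8%) were on a plateau, 72 had a positive log2 fold change above 5 µM, and the median was 0.0010. Of the 119 repressed genes (1.11%), 34 (28.6%) were on a plateau, 77 had a negative log2 fold change, and the median was -0.09. Over all genes fitted the median was 0.0008, and 35.8% had an interval within the margin. Abundance differed as well, and its part in these shares was only followed by a minimum level: the induced genes had a median of 79.3 CPM and the repressed ones 42.3 CPM, against 33.1 CPM for all genes. With at least 20 CPM, 71.9% of the induced and 39.5% of the repressed genes were on a plateau, beside 54% of all genes, with medians of 0.0010 and -0.08. The median standard error was 0.150 for the induced, 0.220 for the repressed and 0.218 for all genes. With at least 20 CPM it was 0.143 for the induced and 0.173 for the repressed genes. A smaller error makes the plateau class easier to reach, and its part in these shares was not tested. The shift of the repressed genes was in the same direction with TMM, with RLE and with no scaling, a setting added after seeing the data. It also kept its direction without either library at 5 µM. The median of the induced genes changed sign: it was -0.014 without replicate 2 at 5 µM and 0.030 without replicate 1.

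**Figure D2:**
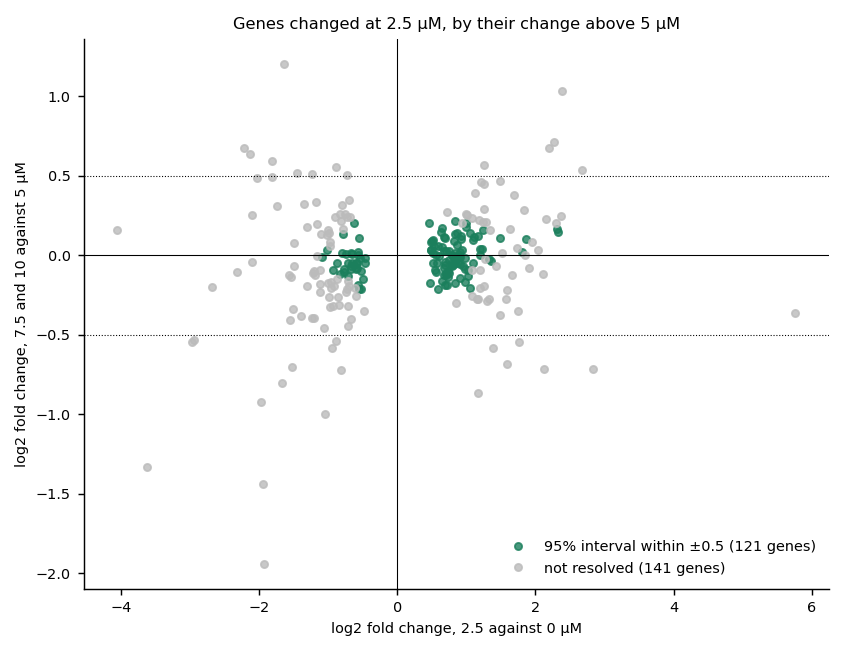
Log2 fold change at 2.5 against 0 µM (x axis) and at 7.5 and 10 µM against 5 µM (y axis) for the 262 genes changed at 2.5 µM, with 1 point per gene. Green points are the 121 genes whose 95% interval lies within the dotted lines at ±0.5, grey points the 141 not resolved; 231 of the 262 point values lie between the lines.

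Among induced genes on a plateau, the largest early changes belonged to *Sp5*, a zinc finger transcription factor, *Trpm1*, a cation channel, *T*, the primitive streak regulator Brachyury, *Ntn1*, a guidance ligand, *S100a13*, a calcium-binding protein, *Phldb2*, *Dnah8*, a dynein heavy chain, *Tmem181a*, *Ttc28* and *Gsn*, an actin-severing protein. Their log2 fold changes above 5 µM lay between -0.04 and 0.17. Of 19 alternative settings *Phldb2* left the margin in 9, *Sp5* in 8 and *Gsn* in 6, with values for *Gsn* up to 0.65. *Trpm1* was at 15.8 and 17.0 CPM at 0 µM, 71.9 and 84.6 CPM at 2.5 µM, 151 and 149 CPM at 5 µM, 175 and 169 CPM at 7.5 µM, and 157 and 172 CPM at 10 µM. All 4 top libraries of *Trpm1* lay above both at 5 µM, and the difference was 1.12-fold, with a 95% interval of 0.95- to 1.33-fold. The plateau thus bounds a change and does not show that none occurred.

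*T* was at 9.78 and 10.6 CPM at 0 µM, 38.8 and 35.1 CPM at 2.5 µM, 117 and 89.3 CPM at 5 µM, 117 and 95.7 CPM at 7.5 µM, and 124 and 102 CPM at 10 µM. The libraries at 5 µM and above overlapped, and 93.4% of the whole rise had been reached at 5 µM (79.6% to 107% with each library left out in turn). *Ntn1* had reached 99.0% (92.9% to 109%), with 138 and 135 CPM at 5 µM and 116 to 168 CPM at the top doses. By the same measure *Fgfbp3* had reached 21.8% (16.7% to 26.9%), *Slc38a4* 34.9% (30.8% to 40.9%) and *Abhd2* 42.7% (35.9% to 49.5%). All 5 genes were selected on the comparison above 5 µM, and that selection fixes the gap in these shares between the plateau genes and the rises.

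Repressed genes on a plateau with the largest early falls were *Pcsk1n*, an inhibitor of prohormone convertase, *Ppp1r14a*, an inhibitor of myosin phosphatase, *Tprgl*, *Slc7a3*, a cationic amino acid transporter, *Ooep*, an oocyte factor, *Pdcd4*, an inhibitor of translation, *Phc1*, a Polycomb subunit, *Ect2*, a cytokinesis regulator, *Dnmt3b*, a de novo DNA methyltransferase, and *Ucp2*, a mitochondrial carrier. Their log2 fold changes above 5 µM lay between -0.12 and 0.13. Of 19 alternative settings *Ppp1r14a* left the margin in 10 and *Ect2* in 6. *Pdcd4* was at 232 and 208 CPM at 0 µM, 97.7 and 144 CPM at 2.5 µM, 107 and 109 CPM at 5 µM, and 98.0 to 117 CPM at the top doses. *Dnmt3b* was at 151 and 123 CPM, 66.1 and 89.2 CPM, 85.5 and 84.0 CPM, and 77.6 to 88.2 CPM at the same doses. Both had their lower level from 2.5 µM on, and their libraries at 5 µM and above overlapped. *Pcsk1n* and *Ooep* differed in that 5 µM lay below 2.5 µM: *Ooep* was at 165 and 162 CPM, 103 and 81.6 CPM, 57.6 and 55.2 CPM, and 45.9 to 62.1 CPM.

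**Figure D3:**
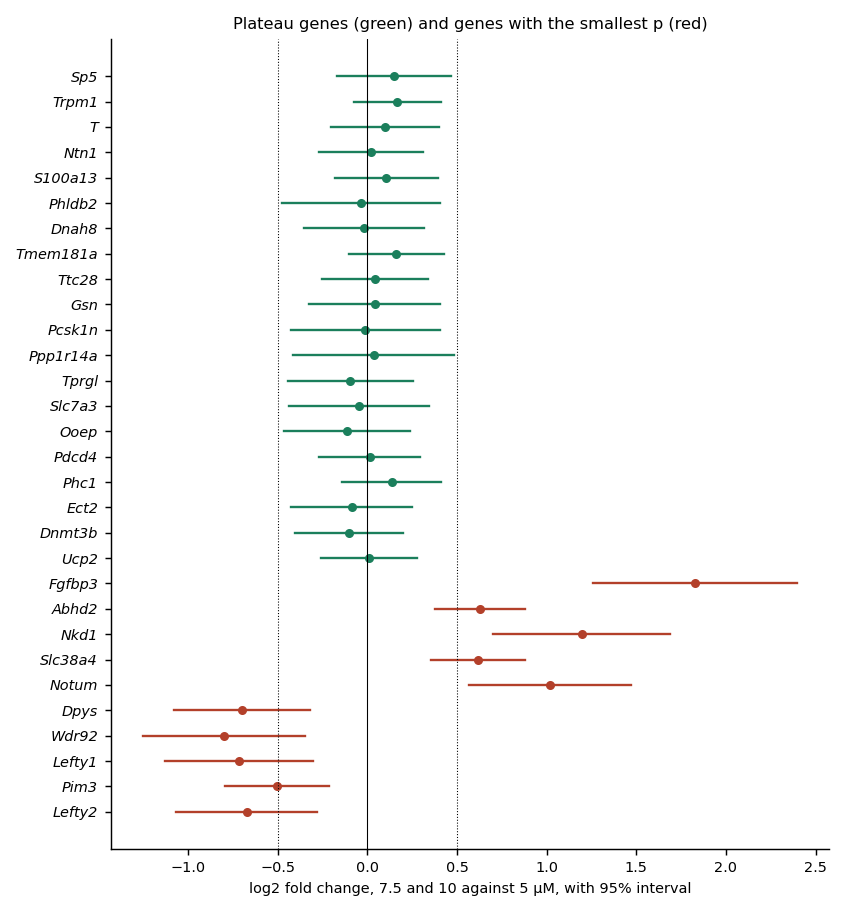
Log2 fold change at 7.5 and 10 µM against 5 µM with its 95% interval (x axis) for the 10 induced and 10 repressed plateau genes with the largest change at 2.5 µM (green) and the 5 rises and 5 falls with the smallest p (red). Dotted lines mark the margin of ±0.5; the green intervals lie within it because that chose the genes, and the interval of *Fgfbp3* runs from 1.26 to 2.40.

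The 10 β-catenin targets that the study picked were chosen on these libraries by their correlation with dose, so their direction is not independent evidence. Their median log2 fold change above 5 µM was 0.36 and all 10 values were positive. The adjusted edgeR test called 0 of 10 in the pooled comparison, and 5 had an unadjusted p under 0.05: *Nkd1* and *Notum*, above, *Axin2* (0.47), *Znrf3* (0.42) and *Cdx1* (0.38). *Sp5* (0.15), *Bmp4* (0.12) and *Tbx3* (0.09) had intervals within the margin, and *Etv4* (0.35) and *Gbx2* (0.27) were not resolved. Without replicate 2 at 5 µM the median was 0.13 and 6 of 10 values were positive.

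The targets stood at different points of their range at 5 µM. *Nkd1* had reached 28.8% of its rise from 0 µM to the top doses (23.4% to 35.1%) and *Notum* 46.4% (33.0% to 59.8%). The ubiquitin ligase gene *Znrf3*, whose product removes Wnt receptors, had reached 60.9% (51.0% to 70.8%), the ETS factor gene *Etv4* 62.7% (37.2% to 88.1%), the caudal homeobox gene *Cdx1* 73.3% (66.6% to 80.0%) and the homeobox gene *Gbx2* 75.3% (69.1% to 78.1%). *Axin2*, a scaffold of the β-catenin destruction complex, had reached 77.1% (58.9% to 95.3%). *Tbx3*, a T-box factor, had reached 91.8% (80.7% to 103%), *Sp5* 92.4% (70.4% to 114%) and *Bmp4*, a BMP ligand, 93.0% (63.8% to 122%). In this order neighbours have ranges that meet, while the range of *Nkd1* meets that of *Notum* and none of the other 8. The shares rest on the same libraries at 0, 5 µM and above for every gene.

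Replicates at 5 µM decided several of these values. *Axin2* was at 117 and 77.8 CPM at 5 µM, against 133, 122, 98.0 and 134 CPM at the top doses, so 1 top library lay below 1 at 5 µM. *Sp5* was at 181 and 117 CPM at 5 µM, 137 and 131 CPM at 7.5 µM, and 180 and 192 CPM at 10 µM. *Bmp4* was at 151 and 104 CPM at 5 µM, and its 4 top libraries, from 115 to 144 CPM, lay between them. In all 3 genes replicate 1 at 5 µM, a library of the low mitochondrial set, was the higher one. Without replicate 2 the log2 fold change was 0.06 for *Axin2*, -0.26 for *Sp5* and -0.25 for *Bmp4*, and without replicate 1 it was 0.69 for *Axin2* and 0.40 for *Sp5*. *Cdx1*, in contrast, was at 222 and 190 CPM at 5 µM and 228, 256, 307 and 291 CPM at the top doses, with no overlap (log2 fold change 0.38 ± 0.13 SE, unadjusted p = 0.00434 and adjusted p = 0.996 in edgeR).

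**Figure D4:**
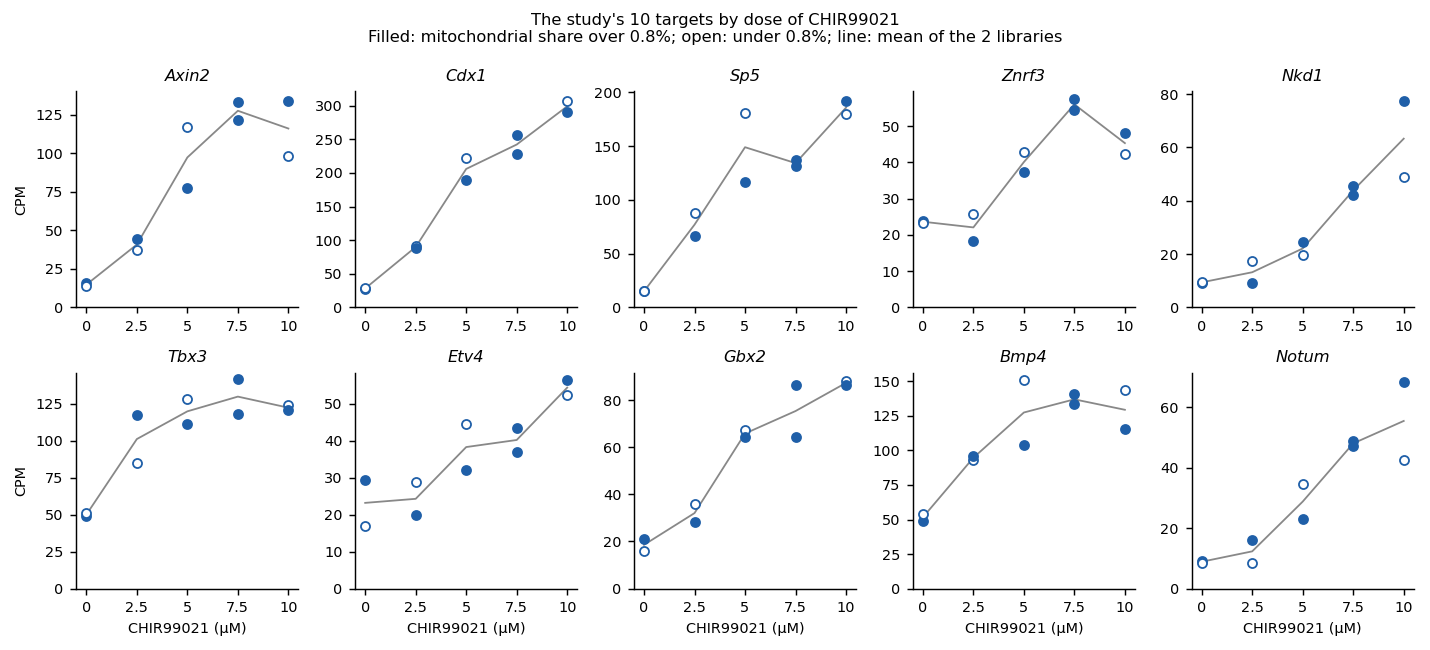
CPM in each of the 10 libraries (y axis, linear from 0) against the dose of CHIR99021 in µM (x axis) for the 10 targets picked by the study, with filled points for a mitochondrial share over 0.8%, open points for one under it and lines through the means of 2 libraries. *Nkd1*, *Notum* and *Cdx1* have all 4 top libraries above both at 5 µM, and in *Axin2*, *Sp5* and *Bmp4* the open point at 5 µM reaches the top range.

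Negative-feedback genes of the pathway were the list with the highest median. Of 13 genes 7 were fitted, 6 with a positive value and 5 with an unadjusted p under 0.05, all higher, beside 2.31% of all genes. The median log2 fold change was 0.47. Of the 5, 4 (*Axin2*, *Nkd1*, *Notum* and *Znrf3*) are also among the targets picked on these libraries, and the fifth was *Rnf43*, the partner ligase of *Znrf3*, at 14.8 and 17.8 CPM at 5 µM and 13.1 to 34.6 CPM at the top doses (0.58). *Sfrp1*, a secreted Wnt-binding protein (-0.06), and the Dickkopf receptor gene *Kremen1* (0.06) had a p above it. *Dkk1*, a secreted inhibitor, was below the filter, at 1.65 and 1.92 CPM at 5 µM and 2.90 to 9.80 CPM at the top doses. Without replicate 2 at 5 µM 8 genes of the list were fitted, 7 with a positive value, and their median was 0.42. The genes fitted differ, so this median is not to be set beside 0.47.

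The machinery on which the compound acts did not pass the test in any member. β-catenin and its destruction complex had 9 of 10 genes fitted, 0 called by edgeR and 0 at an unadjusted p under 0.05, with values from -0.36 to 0.13. *Ctnnb1* itself was at 457 and 445 CPM at 5 µM and 422 to 542 CPM at the top doses, and its interval, -0.15 to 0.31, lay within the margin. Of the 6 TCF/LEF and Sp factors none had a p under 0.05. *Tcf7l1*, the repressor among them, was at 100.3 and 83.0 CPM at 5 µM and 66.7 to 80.6 CPM at the top doses (-0.29, unadjusted p = 0.061 in edgeR). It lay wholly below 5 µM, as did 5.9% of all genes. Wholly above 5 µM, as were 6.76% of all genes, lay *Lef1* (39.5 and 38.4 CPM, then 42.5 to 48.6 CPM) and the low *Sp8* (9.87 and 9.12 CPM, then 10.9 to 15.1 CPM).

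Nodal pathway genes had mostly negative values. Of 7 fitted, 6 had a negative value, with a median of -0.16 (-0.44 without replicate 2 at 5 µM and -0.12 without replicate 1). Of these 3 had an unadjusted p under 0.05, all lower, beside 2.49% of all genes: *Lefty1* (-0.72), *Lefty2* (-0.67) and the ligand *Gdf3* (-0.40). *Lefty2* was at 42.8 and 51.8 CPM at 5 µM and 24.1 to 39.2 CPM at the top doses. *Gdf3* was at 95.4 and 78.2 CPM at 5 µM and 53 to 70.8 CPM at the top doses. For all 3 genes the groups did not overlap, and 5.9% of all genes fitted lay wholly below 5 µM in this way. *Nodal* itself (-0.16) overlapped, and the co-receptor gene *Tdgf1* (-0.11) lay below 5 µM without overlap but within the margin. The inhibitor *Smad7* (0.18) lay wholly above 5 µM, as did 6.76% of all genes. None of the 7 passed adjustment over all genes.

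Of 13 naive pluripotency factors 9 had intervals within the margin, beside 35.8% of all genes and 54% of those with at least 20 CPM. Among the 9 were *Nanog* (-0.05), *Esrrb* (-0.04), *Tfcp2l1* (-0.01) and *Klf4* (0.03). The median of the list was -0.05, and -0.09 without replicate 1 at 5 µM. Against 0 µM the list was mixed: at the top doses edgeR called 6 of the 13 lower and 3 higher, with a median of -0.33. *Klf4*, which rose, was at 264 and 277 CPM at 0 µM, 430 and 421 CPM at 2.5 µM, 500.1 and 467 CPM at 5 µM, and 477 to 520 CPM above. *Fgf4*, which fell, was at 327 and 333 CPM, 187 and 243 CPM, 155 and 169 CPM, and 124 to 175 CPM at the same doses. The 2 naive genes with an unadjusted p under 0.05 were both lower, *Dppa3* (-0.67), a maternal factor that protects DNA methylation, and *Klf2* (-0.23), which also lay within the margin. *Dppa3* was at 36.2 and 28.8 CPM at 5 µM and 14.3 to 23.9 CPM at the top doses, with no overlap. Among 9 general pluripotency genes 1, *Utf1* (-0.33), had an unadjusted p under 0.05, and its groups overlapped through replicate 1 at 10 µM (219 CPM against 235 and 216 CPM at 5 µM).

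Of the primitive streak genes *T* (0.10) was on a plateau and *Wnt3* was at 31.3 and 29.8 CPM at 5 µM and 19.6 to 34.6 CPM above. *Mixl1*, a homeobox regulator of mesendoderm, was at 4.94 and 5.28 CPM at 5 µM and 10.9 to 17.3 CPM at the top doses, and *Evx1*, a posterior streak homeobox gene, at 1.65 and 3.36 CPM and 6.34 to 13.1 CPM. Both passed the filter on low counts only through the top libraries, so these levels are a description, and at 5 µM they lie near the floor of a single library. *Eomes* (-0.34) and *Fgf8* (-0.35) overlapped. Of the 16 genes of this list, 10 were not fitted.

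Of the BMP genes, *Msx1*, a homeobox target of BMP signaling, was at 2.17 and 1.06 CPM at 0 µM, 32.9 and 27.4 CPM at 5 µM, 52.2 and 39.8 CPM at 7.5 µM, and 52.3 and 46.7 CPM at 10 µM. Its top libraries lay above both at 5 µM (0.67, unadjusted p under 0.05), as 1 of 8 genes in a list whose median was 0.11. Without replicate 2 at 5 µM that median was -0.20. In the FGF-ERK list 8 of 10 values were positive, with a median of 0.21 (0.14 without replicate 1 at 5 µM). *Spry2*, a feedback inhibitor, had an unadjusted p under 0.05 (0.27). Its level in replicate 1 at 10 µM, 252 CPM, lay below both libraries at 5 µM (306 and 287 CPM). Cholesterol and fatty acid synthesis genes had 15 of 21 positive values and a median of 0.13, with 1 gene, the desaturase gene *Scd1* (0.40), at an unadjusted p under 0.05. The amino acid and stress genes under ATF4 had 12 of 16 positive values, a median of 0.10 and 0 at an unadjusted p under 0.05. Without replicate 2 at 5 µM their median was -0.05, over 17 fitted genes. Of the lysosome and TFEB/TFE3 genes 12 of 16 were positive (median 0.12, and 0.014 over 17 fitted genes without replicate 2 at 5 µM). At an unadjusted p under 0.05, 0 of them were higher and 1 was lower. *Tfe3* was lower (-0.36) and *Tfeb* higher (0.45) in point value, each without overlap, as were 5.9% and 6.76% of all genes in these directions. Lists of p53 targets, glycolysis, DNA replication, contractile actin, and Myc, cyclin and CDK inhibitor genes had medians between -0.01 and 0.02 and 0 genes at an unadjusted p under 0.05 each. The actin median was -0.21 without replicate 2 at 5 µM and 0.09 without replicate 1, and the Myc and cyclin median was 0.14 without replicate 1. Cdx, Hox and retinoic acid genes, 5 of 12 fitted, had a median of 0.17 (0.10 without replicate 1 at 5 µM, where 6 were fitted). *Cdx1* alone had an unadjusted p under 0.05. Of 8 primed pluripotency genes 5 were fitted and 0 had an unadjusted p under 0.05. In that list *Otx2*, at 17.9 and 19.1 CPM at 0 µM, was at 0 and 0.960 CPM at 5 µM and at 0 to 3.01 CPM above. The mitosis and the cadherin lists had 1 each, both lower, the kinesin gene *Kif11* (-0.34) and *Vim* (-0.27), and for both the groups overlapped.

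**Figure D5:**
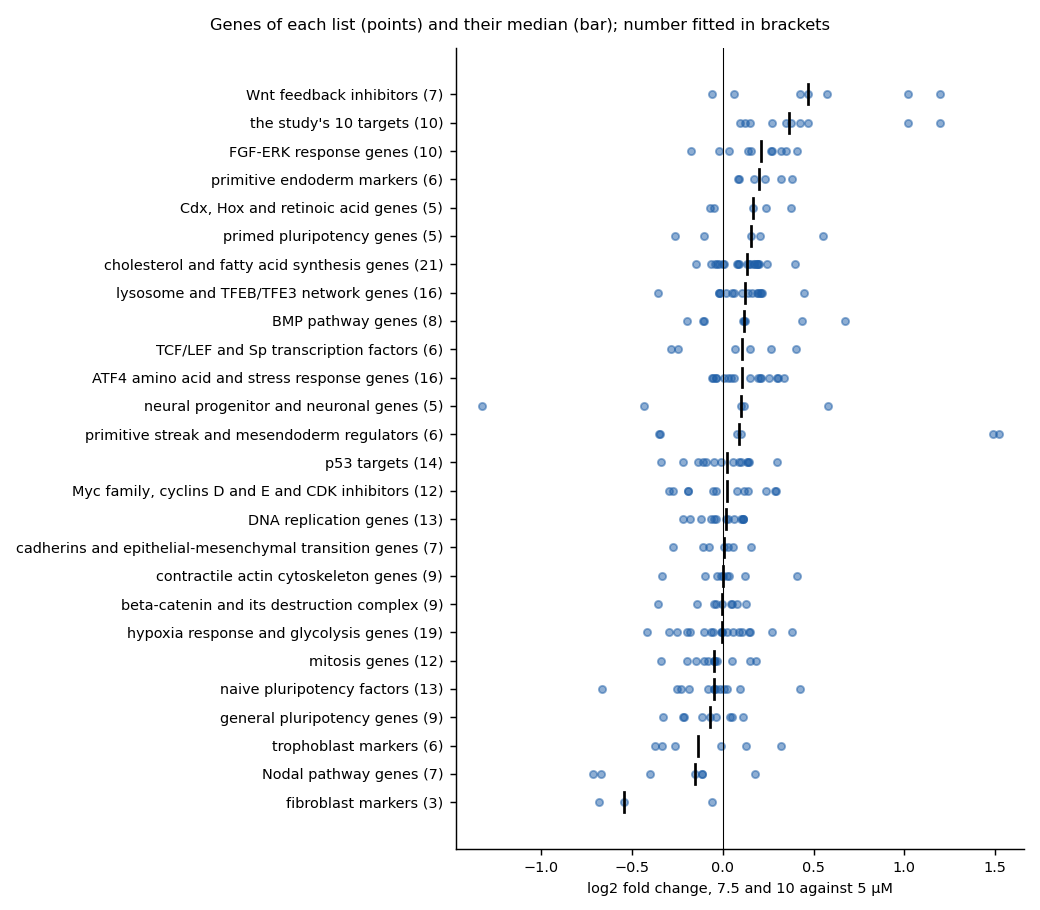
Log2 fold change at 7.5 and 10 µM against 5 µM (x axis) for the fitted genes of each list (points), with the list's median as a bar and the lists ordered by it. The median runs from 0.47 for the Wnt feedback inhibitors to -0.55 for 3 fibroblast markers, and the 10 targets picked on these libraries and the feedback list share 4 genes.

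Markers of other cell types were examined beside these results. Of 8 fibroblast markers 3 were fitted, and the list's summed level was 66.2 to 75.7 CPM at 5 µM and 45.2 to 57.6 CPM at the top doses, carried by *Col1a1*. *Postn* was at 0 in all 6 libraries and *Lum* in 5. Primitive endoderm markers, 6 of 10 fitted, summed to 285 to 343 CPM at 5 µM and 351 to 398 CPM at the top doses, most of it from laminin and collagen IV genes. *Sox17* was not fitted: it was at 0 in both libraries at 5 µM and at 1.45 to 3.27 CPM above. These levels lie near the floor of a single library and are not read as a difference. Trophoblast markers (56.2 to 79.0 CPM and 52.3 to 66.8 CPM) and neural genes (125 to 172 CPM and 134 to 181 CPM) overlapped between the groups. Markers of 2-cell-like cells summed to 1.51 to 4.94 CPM. The part of other cell types in the results was not tested.

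The 2 library sets touch the result directly, because both hold libraries at 5 and 10 µM but only the set with the higher mitochondrial share holds 7.5 µM. With the set as a term in the fit, 10 genes were called between the top doses and 5 µM: *Fgfbp3*, *Abhd2*, *Nkd1*, *Slc38a4* and *Notum*, the chaperone gene *Hsp90b1* as the single lower one (-0.35, edgeR adjusted p = 0.0222), and 4 mitochondrial genes. The mitochondrial share defined the sets, so the calls of these 4 are not read. The sets also separate shallow from deep libraries, so the term cannot tell mitochondrial share from depth. Within the set of higher share alone, with 1 library at 5 µM and 1 at 10 µM, 11 genes were called, *Axin2* among them (0.72, edgeR adjusted p = 0.0197).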

How the data were processed

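Bulk 3′ RNA-seq with UMIs (mcSCRB-seq) was available for 10 libraries of unedited E14 cells at 5 doses of CHIR99021 and for 15 clones, which were not used here. The deposited table holds raw counts, which the authors obtained by trimming with Cutadapt, extracting barcodes with UMI-tools, removing ribosomal reads with SortMeRNA, aligning with STAR to mm10, marking duplicates with Picard and assigning reads to genes with featureCounts (version 2.0.1 per the labels). The annotation release and the strand setting of the counting are not given in the sources used here, so overlapping and antisense genes are uncertain. Of 48440 gene IDs, 48058 were matched to a GENCODE annotation of GRCm38, 40606 of them with the same version.

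Counts were fitted with edgeR 4.0.16 (R 4.3.3) by its quasi-likelihood test after TMM scaling. The 10674 genes that passed filterByExpr at a count of 10 were fitted, and p-values were adjusted over all of them (Benjamini-Hochberg, threshold 0.05). The group factor had 4 levels (0, 2.5, 5 µM, and 7.5 with 10 µM), and single doses came from a factor of 5 levels. The common biological coefficient of variation was 0.0880. Standard errors came from the F statistic, and 95% intervals from the t quantile at the total degrees of freedom. For 2 genes no interval could be computed. The share of the response reached at 5 µM is the mean CPM at 5 µM minus that at 0 µM, as a percent of the top mean minus that at 0 µM.

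Named genes were the 10 targets picked by the study, members of 27 lists (303 genes, of which 61 were not fitted), the 5 rises and 5 falls with the smallest p among genes of at least 20 CPM (too few passed the threshold to fill the list), genes called at a single dose, and, in the plateau class, the 10 genes per direction with the largest change at 2.5 µM. The rises, falls and plateau genes were thus selected on the comparison they describe. The comparison and the lists were chosen with earlier results of these data known. Lists were described by counts and medians and were not tested as sets.

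Alternatives were RLE size factors, no filter, a replicate block, counts thinned to 306157 per library, the library set as a term or the set with a mitochondrial share over 0.8% alone, 5 dose levels, the 6 libraries alone, DESeq2 1.42.0, a margin of 1, responders from 5 µM against 0 µM, and each of the 10 libraries left out. The steps were tested on simulated data.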

Additional observations from a re-analysis of the deposited data

Results flagged for a closer look

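In the 4 libraries at the top doses, 3 of the 40 genes named by rule had 1 library set apart from the other 3 by Dixon's test, and chance alone gives about 1 in 20. The test weighs a gap against the range and takes no account of depth. *Gbx2* was at 64.5 CPM in replicate 2 at 7.5 µM, against 86.3 to 88.2 CPM in the others, a value that lies between the 2 libraries at 5 µM (67.4 and 64.3 CPM). *Slc7a3* was at 58.8 CPM in replicate 1 at 10 µM, against 36.3 to 39.9 CPM. *Dnmt3b* was at 88.2 CPM in the same library, against 77.6 to 79.1 CPM. That library held 306157 counts, so 3 counts in it equal 9.80 CPM, and its values for *Slc7a3* and *Dnmt3b* rest on few counts. It was also of the low mitochondrial set. The part of counting error and of the set in these values was not tested.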

How the results depend on the processing

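The top doses against 5 µM gave 2 calls, with RLE 3, without the filter on low counts 14, with a replicate block 1, on thinned counts 0, with the library set as a term 10, within the set of higher mitochondrial share 11, with 5 dose levels 5, with the 6 libraries alone 2 and with DESeq2 1. Leaving out single libraries gave 0 (without replicate 2 at 5 µM) to 5. The set of higher mitochondrial share holds 1 library each at 0, 2.5, 5 and 10 µM, beside 2 at 7.5 µM. Its pooled fit takes the spread from its libraries at 7.5 and 10 µM together, and its single-dose fits from the 2 at 7.5 µM alone. No single-dose comparison within the set has 2 libraries in both groups, and 10 µM against 5 µM sets 1 library against 1. Those counts describe these libraries only. The same settings for 7.5 µM against 5 µM gave 15 without the filter, 0 thinned, 8 with the set term, 25 within the set, 0 with DESeq2 and 0 to 2 with libraries left out. For 10 µM against 5 µM they gave 17, 0, 30, 42, 1 and, with libraries left out, 1 (without replicate 2 at 5 µM) to 8. For 10 against 7.5 µM they gave 11 without the filter, 17 with the set term, 32 within the set, 1 with the replicate block and 0 to 4 with libraries left out.

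The 262 early responders became 1 on thinned counts and 493 with the set term, with 0 and 293 on a plateau. Leaving out libraries gave 76 (without replicate 1 at 0 µM) to 317 responders and 40 to 157 on a plateau. A margin of 1 put 215 on a plateau, and responders from 5 µM against 0 µM numbered 915, with 376 on a plateau and 2 moved on. Within the set 2 had moved on, and without the filter 4 had turned back. On thinned counts 3 of the 10 targets, *Axin2* (-0.010), *Gbx2* (-0.050) and *Sp5* (-0.046), changed sign, *Ntn1* went from 0.02 to -0.63, and all 20 named plateau genes left the margin. Leaving out 1 library at 5 µM gave -0.070 to 0.17 for *Tbx3*, -0.0075 to 0.50 for *Etv4* and -0.25 to 0.34 for *Bmp4*, the lower value without replicate 2.

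*Fgfbp3* stayed called in 17 of 19 settings, missing on thinned counts and without replicate 2 at 5 µM. *Abhd2* stayed called in 11, *Nkd1* was called in 9, *Slc38a4* in 7 and *Notum* in 6, and *Fgfbp3* kept a log2 fold change of 1.45 to 2.02. Replicate numbers did not pair the libraries: over 10 pairs of doses the differences between replicates correlated at -0.12 to 0.11, 2 of them above 0.1. The precision of each value is limited by 2 libraries a dose and 306157 counts in the shallowest. Apart from thinning, which removes counts, the cause of these moves was not tested.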
